A study of Mus musculus with 6 samples.

Results

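The genes of the centromere, the kinetochore and the spindle checkpoint were described in mouse oocytes and early embryos labelled YAP-null or wild type. The set was chosen by symbol and not by value: all symbols made of Cenp and a single letter (17 in the tables) and 25 named partners, which gave 42 of the 23308 symbols in the tables. All 25 named partners were present. Each of the 6 RNA sequencing libraries was made from 60 oocytes or embryos of females on an ICR background, aged 21 to 23 days, which had been injected with the gonadotropins PMSG and hCG and were mated where embryos were collected. At the 4-cell stage there was 1 library of YAP-null embryos from YAP-/- females and 1 of wild-type embryos from WT females. At the germinal vesicle (GV) stage, when the fully grown oocyte is arrested before its meiotic divisions, there were 2 libraries of YAP-null oocytes and 2 of wild-type oocytes. The labels call the YAP-null samples Yap1-deleted; they do not name the cells in which Yap1 was deleted or the driver of the deletion, and the sources used here give no genotype for the fathers. The source field of the 4-cell samples speaks of GV oocytes, whereas their titles and stage fields give the 4-cell stage, which was used. Nothing in the labels says that replicates came from separate animals, so p-values measure only the spread between these libraries, which may be technical.

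A chromosome is moved by its kinetochore, a protein assembly built on centromeric chromatin that carries the histone H3 variant CENP-A. A constitutive inner layer binds this chromatin, an outer layer binds microtubules, and the spindle checkpoint holds back the anaphase-promoting complex (APC/C) until every kinetochore is attached. The mouse oocyte stores these transcripts for the meiotic divisions and the first cleavages, after which the embryo depends on transcripts of its own; checkpoint and cohesin-protection proteins are known in the oocyte for their bearing on chromosome segregation errors.

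All 8 oocyte markers, among them Gdf9 and Zp3, were at 1 FPKM or more in each GV library and also in the YAP-null 4-cell library. In the wild-type 4-cell library 6 of 8 were, so this count does not separate the stages. The 8 cleavage-stage markers reached 1 FPKM in both 4-cell libraries, against 2 of 8 in each GV library. FPKM are fragments per kilobase of transcript, scaled to the mapped fragments of the library. Of 13 granulosa and cumulus cell markers 5 to 7 reached 1 FPKM in GV libraries, with a summed level of 31.5 to 42.1 FPKM. In the 4-cell libraries 2 of 13 did, Amhr2 and Gja1, which made up 94.8 of 96.7 FPKM in YAP-null and 207 of 209 FPKM in wild-type embryos. The other 11 markers summed to 1.89 and 1.97 FPKM in YAP-null and wild-type 4-cell embryos, against 29.2 to 37.8 FPKM in GV libraries, a split made after the values were seen. Yap1, the targeted gene, had 33.3 FPKM in YAP-null against 89.7 FPKM in wild-type 4-cell embryos, and 10.8 and 10.04 FPKM in YAP-null against 248 and 154 FPKM in wild-type GV libraries. Yap1 was thus higher in the YAP-null 4-cell library than in both YAP-null GV libraries. The name YAP-null follows the labels and does not mean that the embryos held no Yap1 transcript, whose source was not tested. The GV difference of -4.10 ± 0.39 in log2(FPKM + 1) had an unadjusted p of 0.00017 and did not pass after adjustment over all genes in limma (adjusted p of 1.00). Yap1 passed with the replicate number as a block (limma, adjusted p of 7.57e-05) and without any 1 of the GV libraries (0.000129 to 0.0126). The summed level of the oocyte markers was 921 FPKM in YAP-null 4-cell embryos, against 147 FPKM in wild-type ones and 6321 to 8844 FPKM in the GV libraries. Depth relative to wild-type GV library 1, estimated from the width of the deposited bounds, came to 0.808 and 0.975 for the YAP-null and wild-type 4-cell libraries, 0.368 and 0.447 for the YAP-null GV libraries, and 0.420 for the second wild-type GV library. GV libraries of 1 genotype differed by their number: 26.7% (YAP-null) and 23.3% (wild type) of 10462 genes differed 2-fold or more between libraries 2 and 1 of the same genotype, and 8 and 7 of the 42 genes did. Here and below, 2-fold is a difference of 1 in log2(FPKM + 1) unless FPKM itself is named.

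Of the 42 genes, 40 were at 1 FPKM or more in all 6 libraries; Nsl1 and Cenpf fell below 1 FPKM in some GV libraries. The levels spread over a wide range (plot of levels by library). Bub1b was the most abundant transcript of the set by its mean over the 4 GV libraries. Birc5 lay above it in YAP-null GV library 2 (432 against 393 FPKM) and level with it in wild-type GV library 2 (462 FPKM each). The passenger complex gene Birc5, the kinases Aurka, Aurkc and Plk1 and the passenger complex gene Cdca8 each averaged over 100 FPKM over the 4 GV libraries, while Nsl1, Cenpi and Sgol2 were the scarcest, at means of 1.38, 3.41 and 3.46 FPKM.

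**Figure D1:**
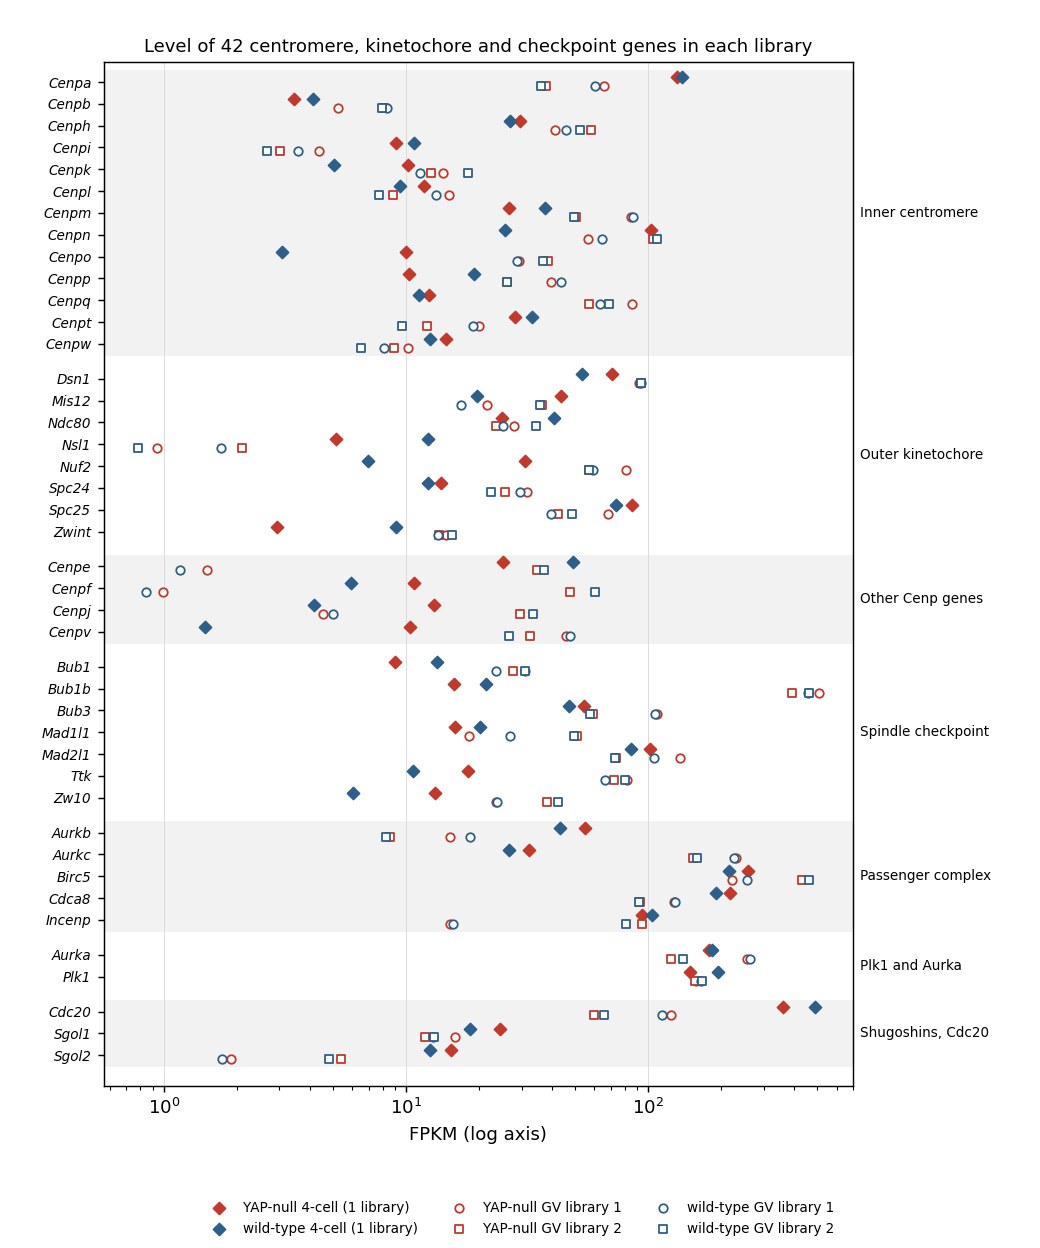
FPKM of each of the 42 genes (log axis) in the YAP-null and wild-type 4-cell libraries (filled diamonds) and in GV libraries 1 (circles) and 2 (squares) of each genotype, grouped by role. Bub1b lies at 15.8 and 21.4 FPKM in the 4-cell libraries and at 393 to 506 FPKM in the GV libraries, and Cenpe and Cenpf split between GV libraries 1 and 2 rather than between genotypes.

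The first comparison, 4-cell embryos against GV oocytes, asked how the stored set differs from that of the cleaving embryo. Bub1b, Aurkc, Ttk, Cenpv, Cenpq and Cenpo led the genes that were lower in 4-cell embryos, while Cdc20, Aurkb, Sgol2, Cenpa, Cenpi and Nsl1 were higher. In limma (two-sided, all 6 libraries, genotype in the model, Benjamini-Hochberg adjusted p under 0.05 over 11451 genes), 6 of the 42 genes rose and 12 fell, and 24 did not pass. Over all genes tested 56.0% passed, 28.2% rose and 27.8% fell, so the share that fell was close to the background and the share that rose was below it. The median difference of the set was -0.53 on the scale of log2(FPKM + 1), against -0.10 over all genes tested. FPKM are shares of a library, and fewer cells or embryos, less RNA per embryo and a change in all other transcripts cannot be told apart. For all 18 genes that passed, both 4-cell libraries lay outside the range of the 4 GV libraries. The test used the same 6 libraries, so this lack of overlap, here and below, is no separate evidence for a call. Over the whole set both 4-cell libraries lay above all 4 GV libraries for 12 genes and below them for 18, against 35.1% and 35.2% of all genes tested.

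**Figure D2:**
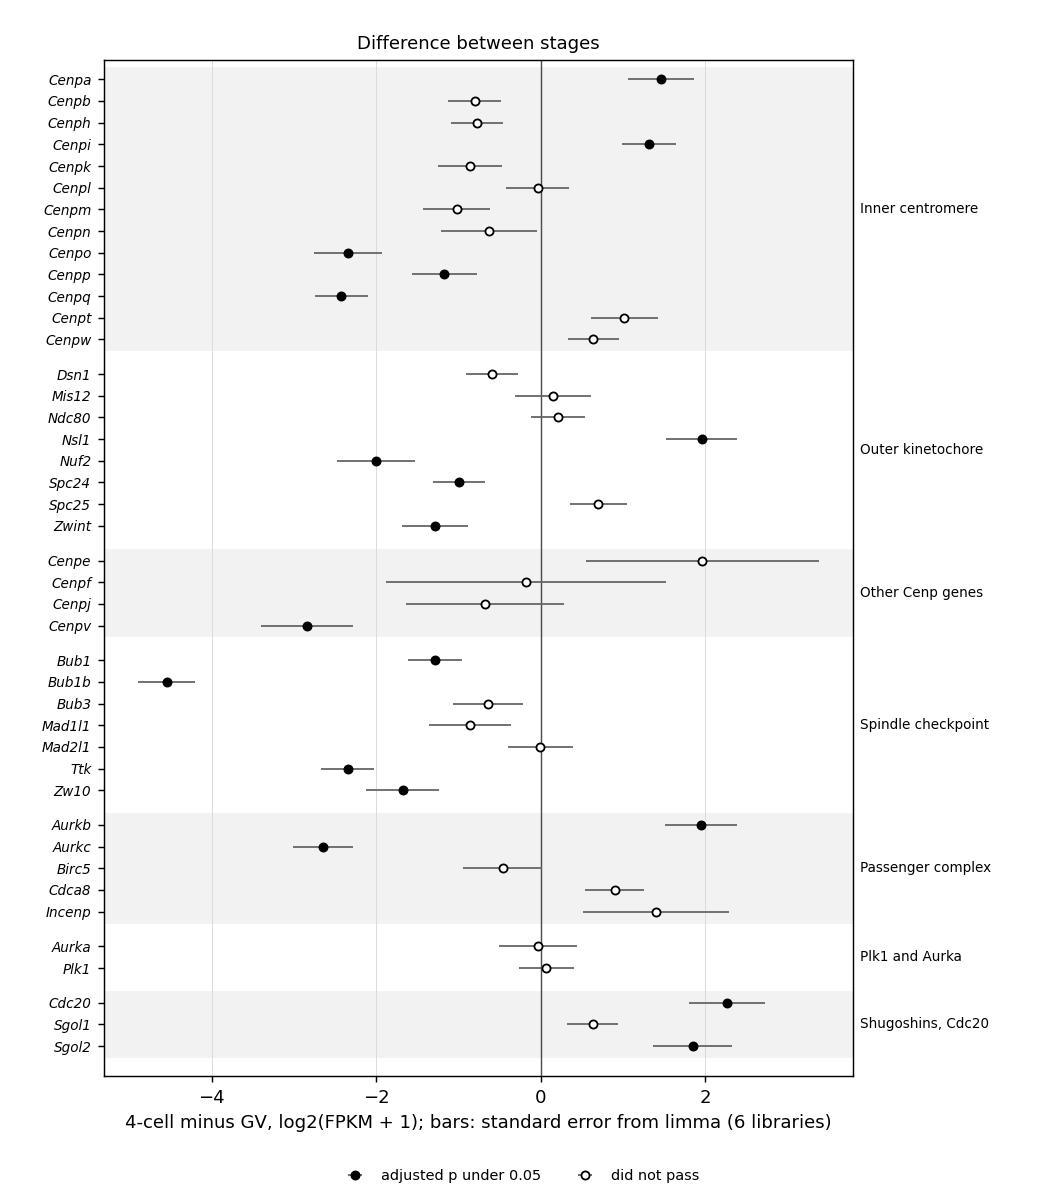
Difference between 4-cell embryos and GV oocytes in log2(FPKM + 1) for each gene with its standard error from limma (6 libraries), filled where the adjusted p was under 0.05. Bub1b has the lowest value (-4.55) and Cdc20 the highest (2.26); Cenpe, Cenpf, Cenpj and Incenp have the widest bars.

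Of the 7 checkpoint genes 4 fell, 0 rose and 3 did not pass, where 27.8% of all genes fell and 28.2% rose. Bub1b (mm9 chromosome 2, 118423947 to 118467328) encodes BubR1, a subunit of the complex that inhibits the APC/C and a protein needed in mouse oocytes for the prophase arrest. Its level was 15.8 and 21.4 FPKM in the YAP-null and wild-type 4-cell libraries, against 506 and 393 FPKM in YAP-null and 458 and 462 FPKM in wild-type GV libraries. The stages did not overlap, and the mean over the 4 GV libraries was 24.4-fold the 4-cell mean. The difference was -4.55 ± 0.35 (SE) in log2(FPKM + 1), with an adjusted p of 0.000256 in limma. Ttk, which encodes the checkpoint kinase MPS1, was at 18.1 and 10.7 FPKM in the YAP-null and wild-type 4-cell libraries, against 81.5 and 72.3 FPKM in YAP-null and 66.6 and 80.3 FPKM in wild-type GV libraries (-2.35 ± 0.33). Zw10, of the complex that brings dynein and MAD1 to the kinetochore, was at 13.2 and 6.03 FPKM in the YAP-null and wild-type 4-cell libraries, against 23.5 and 38.4 FPKM in YAP-null and 23.7 and 42.5 FPKM in wild-type GV libraries (-1.67 ± 0.44). Bub1, the kinase that marks centromeric histone H2A, was at 8.97 and 13.4 FPKM in the YAP-null and wild-type 4-cell libraries and at 23.5 to 31.1 FPKM in GV oocytes (-1.28 ± 0.33). None of these 4 genes overlapped between stages. Mad2l1, Mad1l1 and Bub3, which form the checkpoint signal with them, did not pass. Mad2l1 was at 102 and 85.2 FPKM in the 4-cell libraries, inside the range of GV oocytes (73.1 to 135 FPKM). Bub3 was at 54.2 and 47.1 FPKM in the YAP-null and wild-type 4-cell libraries, below all GV libraries (57.3 to 109 FPKM, -0.64 ± 0.43). Mad1l1 was at 15.9 and 20.2 FPKM, against 18.1 to 50.7 FPKM in GV oocytes (-0.86 ± 0.50).

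The passenger complex, which corrects wrong attachments, showed opposite differences of its kinases. Aurkc (mm9 chromosome 7, 6948096 to 6955802), the Aurora kinase of germ cells, was at 32.3 and 26.7 FPKM in the YAP-null and wild-type 4-cell libraries, against 230.0 and 153 FPKM in YAP-null and 226 and 159 FPKM in wild-type GV libraries. Aurkb (mm9 chromosome 11, 68859145 to 68865164), its counterpart in somatic cells, was at 54.9 and 43.1 FPKM in the YAP-null and wild-type 4-cell libraries, against 15.1 and 8.59 FPKM in YAP-null and 18.3 and 8.27 FPKM in wild-type GV libraries. Neither gene overlapped between stages, and the differences were -2.64 ± 0.37 for Aurkc and 1.94 ± 0.44 for Aurkb (limma, adjusted p of 0.00166 and 0.0102). The ratio of Aurkc to Aurkb, both per kilobase, was 0.589 and 0.619 in the YAP-null and wild-type 4-cell libraries, against 15.2 and 17.8 in YAP-null and 12.3 and 19.3 in wild-type GV libraries. The order of the pair was therefore the reverse in embryos of what it was in oocytes, in all 6 libraries. The ratio was formed with the values known. A two-sided permutation test of its log2 between the stages gave a p of 0.133. With 15 arrangements this p could not fall under 0.05, so the test decides nothing. Aurka, the spindle pole kinase, did not pass and was at 178 and 183 FPKM in the 4-cell libraries, between the GV libraries numbered 2 (124 and 139 FPKM) and 1 (257 and 263 FPKM). The other subunits did not pass: Birc5 (survivin) and Cdca8 (borealin) were at -0.46 ± 0.48 and 0.90 ± 0.36, and Incenp, the scaffold of the complex, at 1.40 ± 0.89.

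Cdc20 and Sgol2 rose, and Sgol1 did not pass. Cdc20 (mm9 chromosome 4, 118105506 to 118109948), the activator through which the checkpoint acts on the APC/C, was at 360.1 and 488 FPKM in the YAP-null and wild-type 4-cell libraries, against 124 and 59.9 FPKM in YAP-null and 114 and 65.9 FPKM in wild-type GV libraries. Both embryo libraries lay above every oocyte library. The difference was 2.26 ± 0.46 with an adjusted p of 0.00697 in limma. Its gene model overlaps that of Elovl1, and the sources used here do not say whether strand was used in counting. Sgol2, the shugoshin that protects cohesin at centromeres in meiosis, was at 15.3 and 12.6 FPKM in the YAP-null and wild-type 4-cell libraries, against 1.89 and 5.38 FPKM in YAP-null and 1.74 and 4.83 FPKM in wild-type GV libraries (1.85 ± 0.48). Sgol1, its mitotic counterpart, was at 24.5 and 18.4 FPKM, above all 4 GV libraries (11.9 to 16.0 FPKM), and did not pass (0.63 ± 0.31).

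Of the 13 inner centromere genes 2 rose, 3 fell and 8 did not pass, where 28.2% of all genes rose and 27.8% fell. Cenpa, which marks the centromere, was at 132 and 138 FPKM in the YAP-null and wild-type 4-cell libraries, against 65.8 and 37.8 FPKM in YAP-null and 60.4 and 36.04 FPKM in wild-type GV libraries (1.46 ± 0.40). Cenpi was also higher (9.10 and 10.8 FPKM in the 4-cell libraries, against 2.67 to 4.39 FPKM in GV oocytes, 1.32 ± 0.33). The genes of the CENP-O, P and Q group, a peripheral unit of the inner kinetochore, fell: Cenpq was at 12.4 and 11.3 FPKM against 57.0 to 86.0 FPKM in GV oocytes (-2.42 ± 0.32), Cenpo at 10.03 and 3.07 FPKM against 28.6 to 38.6 FPKM (-2.34 ± 0.42) and Cenpp at 10.3 and 19.1 FPKM against 26.2 to 43.7 FPKM (-1.17 ± 0.39). These 3 genes were grouped after their values were seen. The models of Cenpo and Cenpp overlap other genes (Adcy3 and Ptrhd1; Aspn, Ecm2, Ogn and Omd), as that of Cenpk does Ppwd1. The other 8 inner genes did not pass, with differences from -1.02 (Cenpm) to 1.02 (Cenpt). Cenpb, whose protein binds a motif in centromeric repeats, had 3.44 and 4.13 FPKM in the 4-cell libraries, below all GV libraries (5.24 to 8.36 FPKM).

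Of the 8 outer kinetochore genes 1 rose and 3 fell, where 28.2% of all genes rose and 27.8% fell. Of the NDC80 complex, which holds the microtubule, Nuf2 fell (30.9 and 6.98 FPKM in the YAP-null and wild-type 4-cell libraries, against 81.2 and 56.8 FPKM in YAP-null and 59.0 and 56.8 FPKM in wild-type GV libraries, -1.999 ± 0.47). Spc24 fell as well, with 14.0 and 12.3 FPKM in the same 4-cell libraries and 22.5 to 31.7 FPKM in GV oocytes (-0.99 ± 0.31). Its partners Ndc80 and Spc25 did not pass (0.21 ± 0.33 and 0.70 ± 0.35). Of the MIS12 complex, which joins the inner to the outer layer, Nsl1 rose, at 5.12 and 12.3 FPKM in the 4-cell libraries and 0.782 to 2.10 FPKM in GV oocytes (1.96 ± 0.43). Dsn1 and Mis12 did not pass, with Dsn1 at 70.9 and 53.1 FPKM below the narrow GV range of 92.1 to 93.8 FPKM. Zwint, which links the checkpoint complex of Zw10 to the outer layer, fell, with 2.94 and 9.08 FPKM in the YAP-null and wild-type 4-cell libraries and 13.6 to 15.5 FPKM in GV oocytes (-1.28 ± 0.40). Among the other Cenp genes Cenpv fell (10.4 and 1.48 FPKM in the YAP-null and wild-type 4-cell libraries, against 26.5 to 47.6 FPKM in GV oocytes, -2.84 ± 0.56).

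The number of calls rested on having both 4-cell libraries. Without the YAP-null 4-cell library 1 gene rose and 7 fell, and without the wild-type one 0 rose and 6 fell. Bub1b, Aurkc, Ttk and Cenpq passed under each of the 17 alternatives tried, and none of the 18 changed direction. Cenpp and Spc24 passed least often, in 9 of 17.

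Some genes of the set differed widely between GV libraries 1 and 2 of both genotypes. Cenpe, a kinesin that carries chromosomes to the spindle equator, had 1.499 and 34.8 FPKM in GV libraries 1 and 2 of YAP-null oocytes, and 1.17 and 37.0 FPKM in those of wild-type oocytes. Cenpf, a large coiled-coil kinetochore protein, had 0.987 and 47.4 FPKM in YAP-null libraries 1 and 2, and 0.845 and 60.5 FPKM in wild-type ones. Cenpj, whose protein builds centrioles, Incenp and Sgol2 were likewise at least 2-fold higher in the libraries numbered 2 in both genotypes. These 5 genes of 42 compare with 17.3% of all genes that were at least 2-fold apart the same way in both genotypes. Cenpf and Cenpe have the longest annotated transcripts of the set, of 11130 and 7910 bases, while Cenpj, Sgol2 and Incenp have 4756, 4939 and 3449 bases. Incenp differed by 2.57 in YAP-null and 2.30 in wild type, and Cenpl, with 4883 bases, by -0.71 in both. Over all genes the median difference of library 2 minus library 1 in log2(FPKM + 1) was 0.68 in YAP-null and 0.67 in wild type for the 1486 genes with a transcript over 6000 bases, and -0.24 and -0.20 for the 2082 genes of 1000 to 2000 bases. The part of length in these values was not tested. Mad2l1, with a longest annotated transcript of 7557 bases, was lower in the libraries numbered 2 (-0.87 in YAP-null and -0.52 in wild type). That transcript is longer than the span of its locus (mm9 chromosome 6, 66485462 to 66490985), so the length behind its FPKM is not known. Against the GV libraries numbered 1 alone Cenpf was higher in 4-cell embryos by 2.24, and against those numbered 2 alone it was lower, at -2.60 (limma, adjusted p of 0.00184 and 0.00166).

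**Figure D3:**
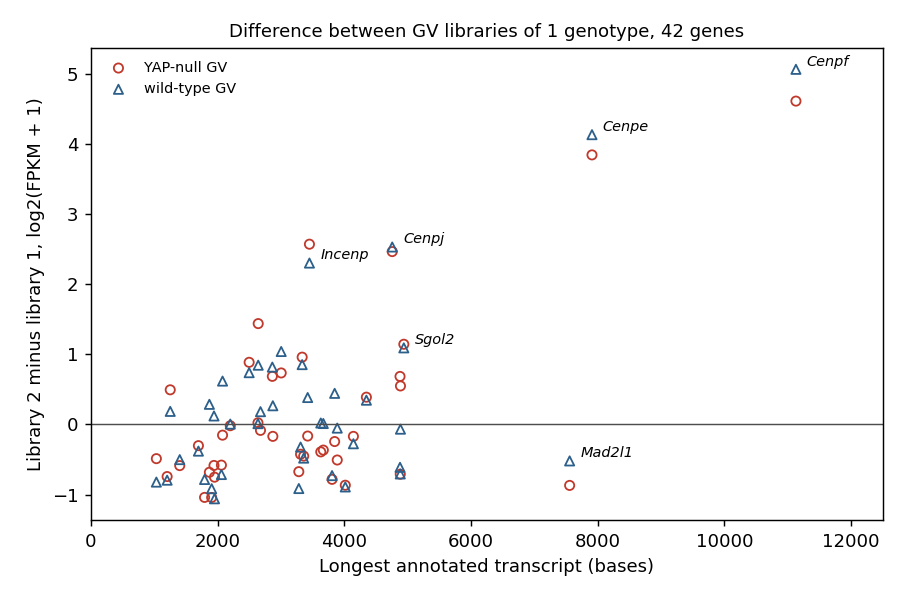
Difference between GV libraries 2 and 1 of the same genotype in log2(FPKM + 1) against the length of the longest annotated transcript in bases, for the 42 genes in YAP-null (circles) and wild-type oocytes (triangles). Cenpf and Cenpe lie highest, at 4.61 and 3.84 in YAP-null and 5.06 and 4.13 in wild type. Mad2l1, plotted at over 6000 bases though its mm9 locus spans less than its longest transcript, lies below 0 in both.

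The second comparison, YAP-null against wild-type GV oocytes, asked whether the stored set differs with the genotype of the oocyte. No gene of the set passed. Of 42 genes 0 were called in limma (two-sided, 4 libraries, Benjamini-Hochberg over 10462 genes), where 0.0% of all genes were called. In the same test 0 of 42 and 22 of all genes (0.21%) had an unadjusted p under 0.05. A share of 0.21% is far below that limit itself, so 0 of 42 does not set these genes apart. The differences ran from -0.28 (Cenpb) to 0.35 (Cenpw) in log2(FPKM + 1), with a median of 0.02 against 0.00 over all genes, and with standard errors of 0.32 to 2.24. Bub1b averaged 450 ± 80.4 FPKM in YAP-null oocytes, against 460 ± 2.83 FPKM in wild-type oocytes (SD, n = 2 each). Aurkc averaged 191 ± 54.6 and 193 ± 47.1 FPKM, and Dsn1 92.8 ± 1.06 and 93.4 ± 0.492 FPKM, in YAP-null and wild-type oocytes (SD, n = 2 each). Within the libraries numbered 1, and within those numbered 2, 0 of 42 genes lay 2-fold apart between genotypes in log2(FPKM + 1), against 1.65% and 1.51% of all genes. The widest were Spc25 at 0.78 within number 1 and Nsl1 at 0.80 within number 2, where Nsl1 had 2.10 FPKM in YAP-null oocytes, against 0.782 FPKM in wild-type ones, over 2-fold in FPKM itself. Of the set, 20 of 42 genes had the same sign within both numbers, against 48.1% of all genes. With 2 libraries against 2 an exact permutation test cannot give a p below 0.333, and a missed threshold does not show that the genotypes are alike.

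The third comparison, YAP-null against wild-type 4-cell embryos, has 1 library per genotype, so it has no replicate check and no test. Transcripts of Cenpv, Nuf2, Cenpn, Cenpj, Cenpo, Mis12 and Zw10 were at least 2-fold higher in the YAP-null library, and Zwint and Nsl1 at least 2-fold lower. These are 7 and 2 of 42 genes, against 17.7% and 9.97% of 10854 genes, or 9 of 42 against 27.7% in either direction. In FPKM itself 8 were higher and 2 lower, the eighth being Cenpk at 10.2 FPKM in YAP-null 4-cell embryos, against 5.03 FPKM in wild-type ones. The median difference of the set was 0.19 in log2(FPKM + 1), against 0.05 over all genes. In the set 25 genes lay above 0 and 17 below, against 52.2% of all genes above 0. The passenger complex, Aurka, Plk1, Cdc20 and both shugoshins held no gene that was 2-fold apart (plot of differences between genotypes).

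Cenpv had the widest difference, at 10.4 FPKM in YAP-null and at 1.48 FPKM in wild-type 4-cell embryos, a difference of 2.20 and a ratio of 7.05 in FPKM (deposited bounds 6.96 to 12.5 and 0.609 to 2.33). Nuf2 was at 30.9 and 6.98 FPKM in the YAP-null and wild-type libraries (bounds 26.5 to 32.9 and 5.58 to 8.20). Cenpn, which reads CENP-A nucleosomes, had 103 FPKM in YAP-null embryos, against 25.6 FPKM in wild-type embryos. Its level in the YAP-null embryo library lay inside the range of YAP-null oocytes (56.3 and 105 FPKM), and that in the wild-type embryo library below both wild-type oocyte libraries (64.6 and 108 FPKM). Cenpj was at 13.1 and 4.16 FPKM and Cenpo at 10.03 and 3.07 FPKM in the YAP-null and wild-type 4-cell libraries. Mis12 was at 43.7 and 19.6 FPKM, and Zw10 at 13.2 and 6.03 FPKM. In the other direction Zwint had 2.94 FPKM in YAP-null embryos, against 9.08 FPKM in wild-type embryos, and Nsl1 had 5.12 FPKM against 12.3 FPKM. For 8 of these 9 genes the value lay inside its deposited bounds in both libraries, and the bounds of the genotypes did not overlap in any of the 8. The 8 were picked as 2-fold apart in the same libraries, so this is no separate evidence of a difference. Over the 36 genes with usable bounds they were apart with YAP-null higher for 14 and lower for 9, against 36.1% and 28.3% of 9804 genes. Bounds belong to 1 library each and do not cover the spread between embryo samples.

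**Figure D4:**
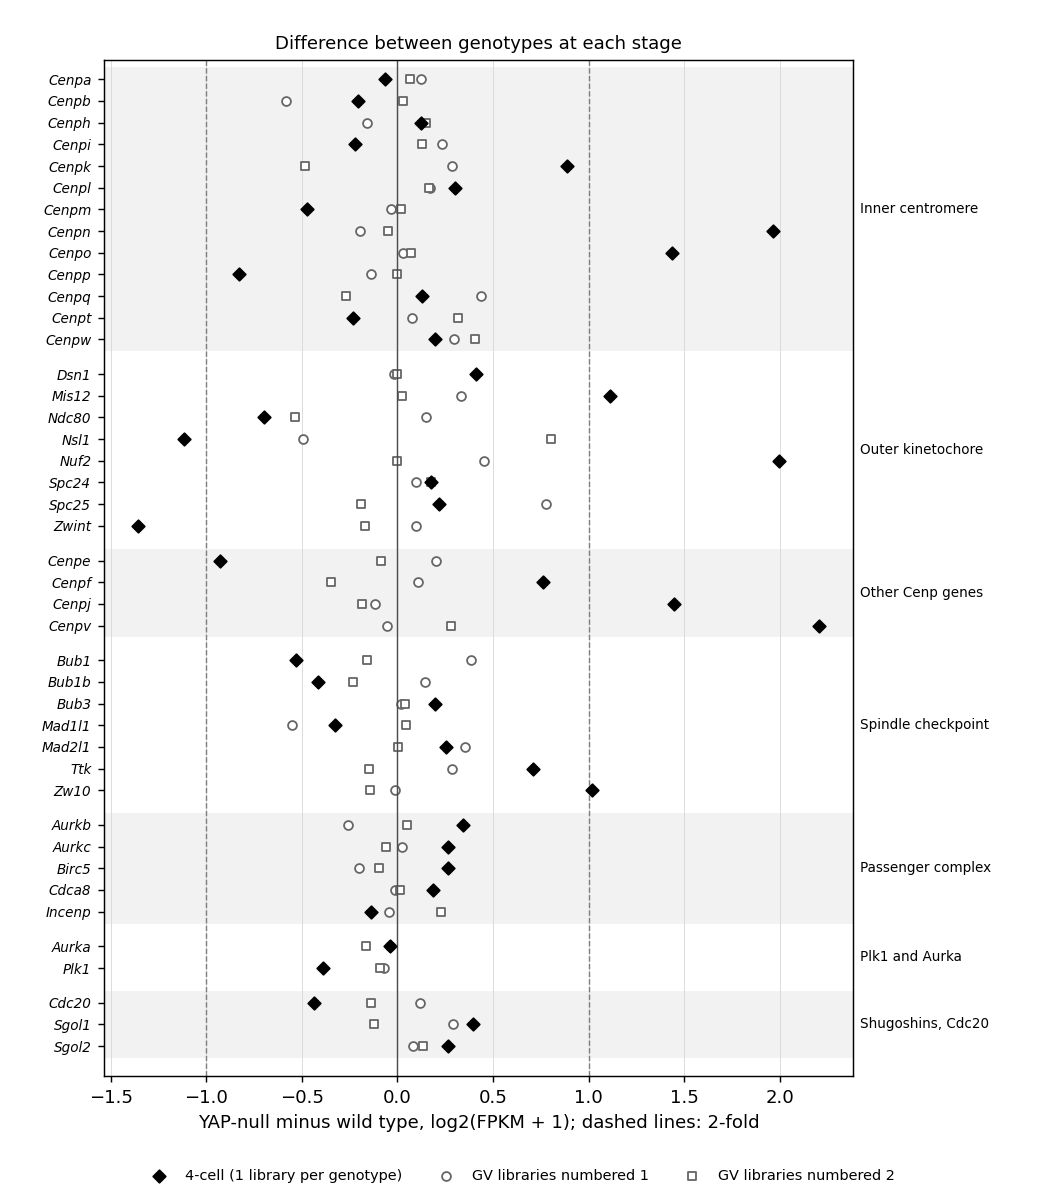
YAP-null minus wild type in log2(FPKM + 1) for each gene at the 4-cell stage (filled diamonds, 1 library per genotype) and within the GV libraries numbered 1 (circles) and 2 (squares); dashed lines mark 2-fold. All GV values lie within 2-fold on this scale, while at the 4-cell stage 7 genes lie beyond 2-fold on the higher and 2 on the lower side.

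The split of these calls moved with scaling. It was 8 higher and 1 lower with each library rescaled to the same FPKM sum, 5 and 3 with median-ratio scaling and 6 and 2 with quantile normalization, and the median of all genes was then 0.23, -0.06 and -0.07. With a pseudocount of 5 FPKM 3 genes were higher and 0 lower. All 8 oocyte markers were at least 2-fold higher in the YAP-null 4-cell library, with a median difference of 3.10. Of the 8 cleavage-stage markers 0 were 2-fold higher and 4 were 2-fold lower in the same library (median -0.66), with sums of 806.0 FPKM in YAP-null embryos, against 1514 FPKM in wild-type ones. The part of these markers in the differences of the kinetochore genes was not tested.

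The 4-cell level as a share of the oocyte level differed among the genes that fell. These shares cannot tell stored transcripts from those newly made in the embryo. The 12 genes held 3.52% to 48.9% of the YAP-null GV mean in the YAP-null 4-cell library and 3.99% to 62.5% of the wild-type GV mean in the wild-type one, with medians of 28.1% and 15.8%. Over all 3180 genes that fell the medians were 18.3% and 9.57%. The share was higher in the YAP-null library for 8 of the 12 genes, close to the 66.1% of all genes that fell. Cenpv held 26.6% in YAP-null and 3.99% in wild type, Nuf2 44.7% and 12.1%, Cenpo 29.6% and 9.42% and Zw10 42.7% and 18.2%. The share was lower in YAP-null than in wild type for Zwint (20.8% and 62.5%), Cenpp (31.4% and 54.7%) and Bub1 (30.6% and 49.2%). Bub1b, at 3.52% and 4.66%, and Cenpq, at 17.4% and 17.1%, had like shares in both. The stage test and these shares use the same 4-cell libraries as the comparison between genotypes and are no separate evidence for it.

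The neighbouring complexes, listed beside the set, were examined with the same stage test. Of 27 further kinetochore and checkpoint genes 25 were in the tables and 24 were tested, and 6 rose and 5 fell. Over all genes 28.2% rose and 27.8% fell, and no list was tested against them. The genes named here have the largest differences of their list. Mad2l1bp and Trip13 encode partners in taking the checkpoint complex apart. Mad2l1bp was at 275 and 326 FPKM in the YAP-null and wild-type 4-cell libraries, against 10.2 to 25.7 FPKM in GV oocytes, a difference of 4.08. Trip13 was at 52.1 and 80.8 FPKM in the same 4-cell libraries, against 3.39 to 7.78 FPKM in GV oocytes, a difference of 3.38. Ppp1cc, a phosphatase 1 catalytic subunit, was higher by 3.99. Of 19 genes of the APC/C and of anaphase 4 rose and 5 fell: the ubiquitin-conjugating enzyme gene Ube2c was higher by 2.05, and Fzr1, the other APC/C activator beside Cdc20, and Anapc4, a scaffold subunit, were at -2.48 and -2.01. Fzr1 was at 23.9 and 9.41 FPKM in the YAP-null and wild-type 4-cell libraries and at 75.6 to 94.4 FPKM in GV oocytes, so that it differed from Cdc20 in direction. Of 16 tested cohesin genes 5 rose and 1 fell, with Stag2, Pds5a and Rad21 higher by 3.76, 3.66 and 2.99. Of 8 condensin genes 1 rose and 3 fell, with Ncapg and Ncaph at -3.52 and -2.57 and Ncapd2 at 3.07, all of them genes of condensin I. In GV oocytes 0 genes of these 4 lists passed between genotypes.

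Many genes of cell division are known to carry a cell cycle homology element near the start of transcription, with CCAAT boxes upstream. The promoter sequences of RefSeq (GRCm38.p6, 250 bases before to 50 after each annotated start) held 43 windows for 38 of the 42 genes. The hexamers TTTGAA (on both strands) and TTCGAA (its own reverse complement) were searched as the element, and CCAAT on both strands. Either hexamer was in 19 of 43 windows, against 19.2% of all 32851 windows, and CCAAT in 29, against 37.4%. Both were in 17 windows of the set and in 7.52% of all windows. The hexamers were in 2 of 5 windows of genes that rose, 4 of 11 of genes that fell and 13 of 27 of the rest. The stretches from 120 bases before to 30 after the start are shown for Cdc20 and Cenpa, which rose, and for Bub1, Ttk and Aurkc, which fell, with both hexamers and CCAAT in capitals on either strand.
Cdc20 (chr4:118437314-118437463, minus strand): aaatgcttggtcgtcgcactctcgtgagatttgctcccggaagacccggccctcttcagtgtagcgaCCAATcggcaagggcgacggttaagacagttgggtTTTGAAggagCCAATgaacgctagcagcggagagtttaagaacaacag
Cenpa (chr5:30666766-30666915, plus strand): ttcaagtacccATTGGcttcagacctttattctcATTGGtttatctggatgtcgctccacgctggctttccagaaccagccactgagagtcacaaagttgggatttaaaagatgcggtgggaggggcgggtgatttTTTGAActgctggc
Bub1 (chr2:127831830-127831979, minus strand): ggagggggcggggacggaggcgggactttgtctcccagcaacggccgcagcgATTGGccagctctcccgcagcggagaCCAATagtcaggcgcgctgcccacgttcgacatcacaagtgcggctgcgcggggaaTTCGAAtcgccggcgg
Ttk (chr9:83834569-83834718, plus strand): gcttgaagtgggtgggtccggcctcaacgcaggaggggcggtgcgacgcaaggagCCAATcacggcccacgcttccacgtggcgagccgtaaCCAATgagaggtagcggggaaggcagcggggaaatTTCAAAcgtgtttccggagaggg
Aurkc (chr7:6995265-6995414, plus strand): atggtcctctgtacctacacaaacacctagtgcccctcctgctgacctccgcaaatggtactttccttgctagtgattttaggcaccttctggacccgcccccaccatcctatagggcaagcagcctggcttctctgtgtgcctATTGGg
In these stretches the hexamer starts 18 bases before the start of Cdc20, and at bases 17, 15 and 8 counted from the annotated start of Cenpa, Bub1 and Ttk, where Ttk has it on the reverse strand as TTCAAA. The bases after the start were found in a GENCODE M21 transcript of the same gene for the others but not for Cenpa. Aurkc has neither hexamer in its window and a single CCAAT, on the reverse strand. A match is a description of the letters, not a site of binding.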

How the data were processed

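The authors deposited 1 gene table per library with FPKM values and a lower and an upper bound for each, per the file headers; the sources used here give no confidence level for the bounds, no quantification tool and no annotation. The submitters' processing notes name CASAVA 1.8, TopHat and mm9. No read counts were used, so depth is known only in relative terms, from the width of the bounds over 1879 genes of 10 to 1000 FPKM; the median half-width was 8.32% to 13.4% of the value. Of 23813 lines, 1 marked as failed was left out, and 260 symbols at several loci were summed; each gene of the set has 1 locus.

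Values were compared as log2(FPKM + 1), which understates changes of low genes, over genes whose mean reached 1 FPKM. All 42 genes passed this filter in each comparison. Tests used limma 3.58.1 with an intensity trend (R 4.3.3) on the whole table, two-sided, without a replicate block. They were also run on simulated data with independent noise in each library. That setting lacks the deviation shared by same-numbered GV libraries, so it does not show how the tests behave with it. The stage fit treats the genotype difference as equal at both stages. Genes that passed the stage test or lay 2-fold apart between 4-cell libraries were described with values. So were the highest and lowest of each group and the Aurora kinases. Their GV values were given by library or as a range, and for some not at all. Up to 3 genes with the largest stage difference were named per neighbouring list. The genes and lists were chosen with earlier results of these data known. Transcript lengths are the longest per symbol in GENCODE M21, found for 98.5% of symbols and all 42 genes. For Mad2l1 and Cenpb this length exceeds the span of the mm9 locus, so it can differ from the model behind the FPKM. Alternatives were pseudocounts, filters, scalings, the replicate block, no trend, no genotype term, a 4-fold limit and leaving out libraries.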

Additional observations from a re-analysis of the deposited data

Results flagged for a closer look

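Plk1, the kinase that acts at kinetochores and spindle poles, had stage differences of opposite sign in YAP-null and wild type. It was at 148 FPKM in the YAP-null 4-cell library, below both YAP-null GV libraries (158 and 156 FPKM), a difference of -0.0825 in log2(FPKM + 1). It was at 194 FPKM in the wild-type 4-cell library, above both wild-type GV libraries (166 FPKM each), a difference of 0.22. The difference between the genotypes was not tested, and both values are small beside the standard error of 0.33 of the stage difference. Plk1 was 1 of 8 among the 42 genes with stage differences of opposite sign, against 1529 of the 11451 genes tested. Cenpn was wider apart, at 0.41 in YAP-null and -1.67 in wild type. No group held enough libraries to look for a single library far from the others.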

How the results depend on the processing

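Replicate numbers are not tied to an animal or a day in the labels, so they pair nothing by design. With the replicate block 2 genes passed between genotypes in GV oocytes, against 0 without it, and 0 of the 42 genes passed in either. Deviations of same-numbered libraries went together over 10462 genes (r = 0.849, across genes), a hint from the data and not from the design. Leaving out 1 GV library gave 2 to 7 genes, and 0 of the 42, where the remaining library is taken to vary as the others do. For the stages, leaving out 1 library gave 2965 to 6332 genes, against 6408, and 6 to 16 of the 42, against 18; the lowest values came without the wild-type 4-cell library, and without the YAP-null one they were 4215 and 8. Against the GV libraries numbered 1 or 2 alone, chosen after seeing the data, 22 and 21 of the 42 passed, and 6908 and 7002 of all genes. Without the genotype term 23 of the 42 and 6913 of all genes did, so the counts over all genes were higher as well. The cause of these shifts was not tested. At the 4-cell stage 3007 genes and 9 of the 42 were 2-fold apart; these were 1275 and 3 with a pseudocount of 5 FPKM and 696 and 1 at 4-fold, and 1723 genes when the mean had to reach 5 FPKM. The other alternatives left each count within 1.5 times. With the block, and without any 1 GV library, Yap1 was among the genes that passed. Relative depth was under 0.5 in 3 GV libraries, and how far depth sets the spread between libraries was not tested. With 1 embryo library per genotype that spread is not known at the 4-cell stage.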

Other observations

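Among the neighbouring lists, 4 of 19 genes of the APC/C and of anaphase were at least 2-fold higher in the YAP-null 4-cell library and 0 lower, near the 17.7% of all genes that were higher (9.97% lower). The median of the list was -0.14 in log2(FPKM + 1), with 7 genes above 0 and 12 below. The 4 higher genes are named here after their values were seen. Pttg1, which encodes securin, the inhibitor of separase, had 742 FPKM in YAP-null 4-cell embryos and 224 FPKM in wild-type ones, against 154 and 697 FPKM in YAP-null and 218 and 703 FPKM in wild-type GV libraries 1 and 2. Fbxo43, the APC/C inhibitor that holds the egg in metaphase, was at 30.8 and 6.45 FPKM in the YAP-null and wild-type 4-cell libraries, and at 29.1 to 43.6 FPKM in GV oocytes. Fzr1 was at 23.9 and 9.41 FPKM and the APC/C subunit gene Cdc26 at 15.6 and 7.20 FPKM in the YAP-null and wild-type 4-cell libraries. Condensin genes had a median difference of -0.44 between the same libraries, with 6 of 8 below 0 and 0 beyond 2-fold. Over all genes the median was 0.05, with 52.2% above 0 and 27.7% beyond 2-fold. The value of Pttg1 differed between GV libraries 1 and 2 by more than it did between genotypes at that stage.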
